A study of Mus musculus with 8 samples.

Results

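The Polycomb repressive complexes are represented here by 10 genes chosen by name among the 14954 genes of the deposited table: Ezh1, Ezh2, Eed, Suz12 and Jarid2 for Polycomb repressive complex 2 (PRC2), and Bmi1, Ring1, Rnf2, Cbx2 and Cbx7 for Polycomb repressive complex 1 (PRC1). All 10 were rows of the table. They were chosen by name and not by a measured level, but with earlier results of these data known. RNA was sequenced from 8 cultures of cortical progenitors grown in vitro from the mouse embryonic stem cell line A2 lox.Cre Bcl6, which carries Bcl6 under a tetracycline-inducible control and had been kept on irradiated embryonic fibroblasts before differentiation. Cyclopamine, an inhibitor of hedgehog signalling, was given to both groups at 400 ng/ml from day 2 to day 10. At differentiation day 12 the 4 control cultures had received DMSO, and the 4 Bcl6-induced cultures 1 µg/ml doxycycline, for 24 h. The samples hold no culture given doxycycline without the transgene, so effects of Bcl6 and of doxycycline cannot be told apart. The comparison asks whether the subunits of the complexes change in cultures in which developmental genes of low level rise.

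PRC2 places methyl groups on lysine 27 of histone H3, and PRC1 places ubiquitin on histone H2A. Both marks accompany the silencing of developmental regulators such as the Hox genes. Ezh1 and Ezh2 are alternative methyltransferases of PRC2, with Ezh2 the form typical of dividing cells. Eed and Suz12 are the core partners that the enzyme needs, and Jarid2 helps recruit and stimulate it. In PRC1, Ring1 and Rnf2 are alternative ubiquitin ligases, Bmi1 is a RING-finger partner of the ligase, and Cbx2 and Cbx7 carry the chromodomain that binds methylated lysine 27. In the embryonic cortex, Ezh2 is known as a regulator of when progenitors divide and when they form neurons.

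The libraries held 9.42 M to 9.74 M reads in the controls and 10.33 M to 15.02 M in the induced group, as recovered from the steps between the deposited values, so every control was shallower than every induced library. Bcl6 itself stood at 6.61, 6.01, 7.12 and 6.21 CPM (the level per 1 M of a library's total) in controls 1 to 4 and at 392.9, 421.8, 426.8 and 324.6 CPM in induced libraries 1 to 4. This is a log2 fold change of 5.90 ± 0.10 (SE, limma adjusted p = 6.8e-11), with transgene and endogenous transcripts counted together. In the controls, the cortical factors Emx2, Lhx2 and Pax6 stood at 4.47, 5.45 and 20.75 CPM, while the general neural progenitor genes Vim, Nes and Sox2 stood at 672.2, 281.9 and 257.1 CPM (means of n = 4). Markers of pluripotent cells were present as well, with Pou5f1 at 538.2 CPM in control cultures. The cultures thus held neural progenitor transcripts beside those of other cell types.

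Of the 10 subunits, 1 passed the test, at a limma adjusted p under 0.05 over all genes: Ezh2 fell, and no subunit rose. This is to be read against 6.81% of all genes called in either direction, 4.55% called higher and 2.26% called lower. The median log2 fold change of the 10 subunits was -0.02, beside 0.03 for all genes tested. At an unadjusted p under 0.05 there were 3 subunits, Ezh2, Ring1 and Cbx2, all with lower values in the induced group, where 23.7% of all genes were past that threshold and 8.89% were past it and lower. The 4 control and 4 induced values did not overlap for 2 of the 10, Ezh2 and Cbx2, beside 17.1% of all genes with no overlap in either direction and 6.32% with no overlap and lower. In RNA from whole cultures, fewer cells of a type and less RNA per cell cannot be told apart.

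**Figure D1:**
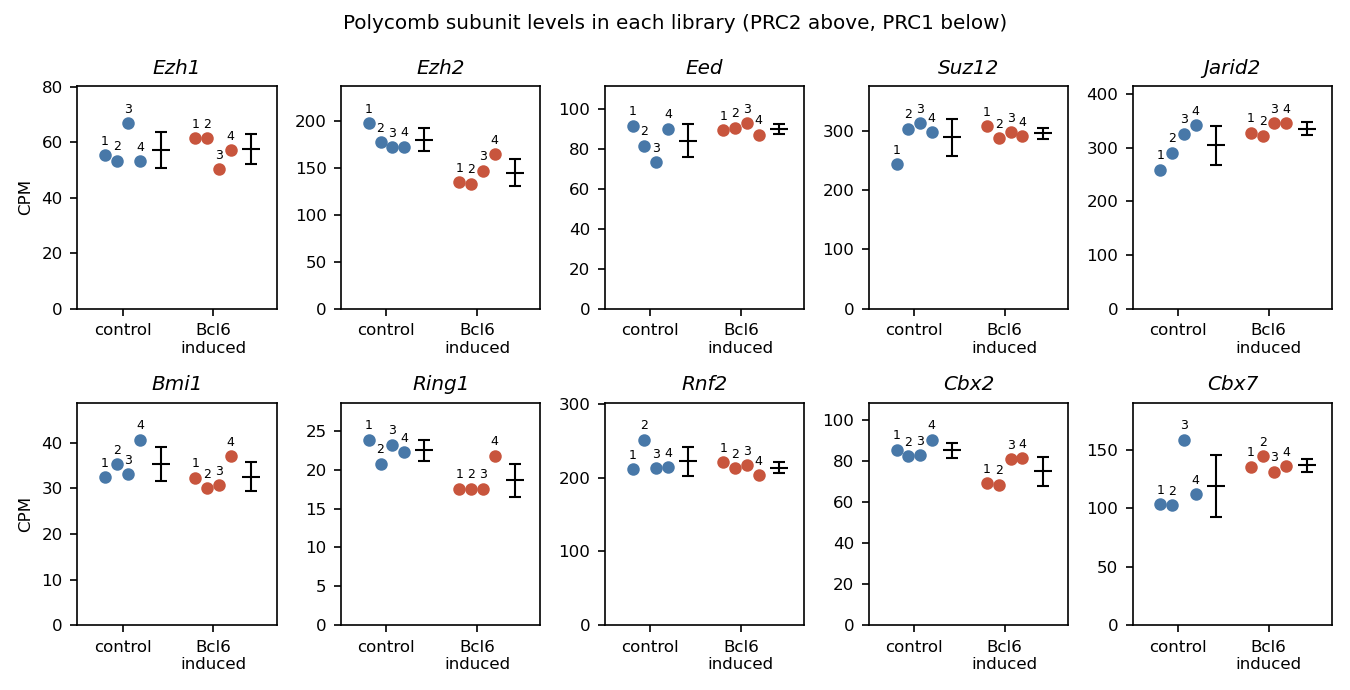
Level of each Polycomb subunit in CPM (vertical axes, each starting at 0) in the 4 control (blue) and 4 Bcl6-induced (red) libraries, with the library number above each point and the mean ± SD beside each group. Ezh2 runs from 172.0 to 197.4 CPM in the controls and from 132.9 to 164.3 CPM in the induced libraries, while Cbx7 has a single high control, control 3, at 158.9 CPM.

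Ezh2 (chromosome 6, 47530139 to 47595341, minus strand, build mm10) had 197.4, 177.1, 172.0 and 172.2 CPM in controls 1 to 4 and 134.6, 132.9, 146.8 and 164.3 CPM in induced libraries 1 to 4. Every induced value lay below every control value, control 1 was the highest of all 8, and induced 4 came closest to the controls. The mean went from 179.7 ± 12.1 to 144.7 ± 14.5 CPM (SD, n = 4 each), a log2 fold change of -0.32 ± 0.08 (SE, limma adjusted p = 0.0482), which is a change of -19.6% with an unadjusted 95% interval of -29.3% to -8.64%. Between 1468 and 2022 reads per library lay behind these values. The adjusted p was close to the threshold, and the call held in 2 of the 8 fits that leave out a single library. It was lost without control 2, 3 or 4 (adjusted p = 0.12, 0.0598 and 0.0694) and without induced 1, 2 or 3 (0.17, 0.16 and 0.0944), while the log2 fold change stayed between -0.38 and -0.27 in all 8. It was also lost, at an adjusted p of 0.0526, when all libraries were thinned to the smallest read total.

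Ezh1 (chromosome 11, 101191115 to 101226463, minus strand), the other methyltransferase, had 55.2, 53.3, 66.9 and 53.2 CPM in controls 1 to 4 and 61.4, 61.5, 50.2 and 57.2 CPM in induced libraries 1 to 4. The groups overlapped, and control 3 was the highest of the 8 and induced 3 the lowest. The log2 fold change was 0.01 ± 0.10 (SE, limma adjusted p = 0.96), and its sign turned under other scalings, among them median-of-ratios scaling (-0.02). Its unadjusted 95% interval ran from -13.3% to 17.4%, so changes within that range remain possible.

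The stretches of DNA before a RefSeq start site of Ezh2 and of Ezh1 are shown because Ezh2 passed the test and Ezh1 did not. The difference between the 2 genes was not tested. They come from RefSeq's promoters of build GRCm38.p6 (mm10), and each covers the bases from 153 to 29 before the start site, written 5′ to 3′ along the gene's own strand; capitals mark CCAAT boxes on either strand (CCAAT or ATTGG), the motif of the NF-Y factor. The Ezh2 stretch lies at chr6:47595059-47595183 and the Ezh1 stretch at chr11:101226492-101226616, both on the minus strand. The distances were set by the longest run of the Ezh2 window without an annotated exon. The gene positions given with each subunit come from another annotation, GENCODE. By those positions the Ezh2 stretch lies inside its gene and the Ezh1 stretch outside, so the 2 are not like positions. The windows of Jarid2 and Cbx7 also lie inside their genes.
Ezh2: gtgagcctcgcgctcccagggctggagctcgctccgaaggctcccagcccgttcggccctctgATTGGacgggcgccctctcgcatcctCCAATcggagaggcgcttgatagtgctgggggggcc
Ezh1: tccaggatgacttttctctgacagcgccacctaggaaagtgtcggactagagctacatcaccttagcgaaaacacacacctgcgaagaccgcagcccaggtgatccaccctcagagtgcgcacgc
Ezh2 had 2 CCAAT boxes in the stretch shown and 3 in the whole window of 250 bases before its start, where Ezh1 had 0. Over all 32851 RefSeq windows of that length, 33.8% held at least 1 CCAAT box (37.5% when counted per gene) and 2.79% held 3 or more. RefSeq windows were found for 9 of the 10 subunits, Cbx2 being the exception. At least 1 CCAAT box lay before 4 of the 9 (Ezh2, Suz12, Jarid2 and Cbx7), and Ezh2 was the only one with 3. The core letters of the Bcl6 binding motif, TTCCTNGAA on either strand, were found before 0 of the 9, beside 1.31% of all windows and 1.54% of genes. Of the E2F motif, the form TTTGGCGC was found before 0 of the 9 (0.417% of all windows) and the form TTTCCCGC before 1, Suz12 (0.895% of all windows). These matches describe the letters in the window and not binding, which was not measured.

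The 3 other PRC2 subunits were not called. Eed (chromosome 7, 89954654 to 89980983, minus strand), which reads trimethylated lysine 27 and stimulates the enzyme, had 91.5, 81.6, 73.3 and 90.0 CPM in controls 1 to 4 and 89.2, 90.5, 92.9 and 87.1 CPM in induced libraries 1 to 4. The induced values were close together and lay inside or just above the wider control range. The log2 fold change was 0.10 ± 0.08 (SE, limma adjusted p = 0.48). Suz12 (chromosome 11, 79993106 to 80034123, plus strand), the scaffold of the complex, had 243.8, 304.0, 313.8 and 298.7 CPM in controls 1 to 4 and 308.9, 288.3, 298.8 and 291.1 CPM in induced libraries 1 to 4. Control 1 was low, and the other 7 libraries overlapped. The log2 fold change of 0.04 ± 0.08 (SE, limma adjusted p = 0.82) became -0.04 without control 1 and -0.01 under upper quartile scaling. Jarid2 (chromosome 13, 44729474 to 44921643, plus strand) had 259.5, 291.0, 326.5 and 342.1 CPM in controls 1 to 4 and 328.8, 322.6, 346.4 and 345.7 CPM in induced libraries 1 to 4. Its induced values lay in or just above the upper part of the control range, and the log2 fold change was 0.15 ± 0.09 (SE, limma adjusted p = 0.33). The unadjusted 95% intervals, on the log2 scale, ran from -0.08 to 0.28 for Eed, from -0.15 to 0.22 for Suz12 and from -0.05 to 0.34 for Jarid2. Single controls set part of these values: the log2 fold change of Jarid2 was 0.07 without control 1 and that of Eed 0.04 without control 3.

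**Figure D2:**
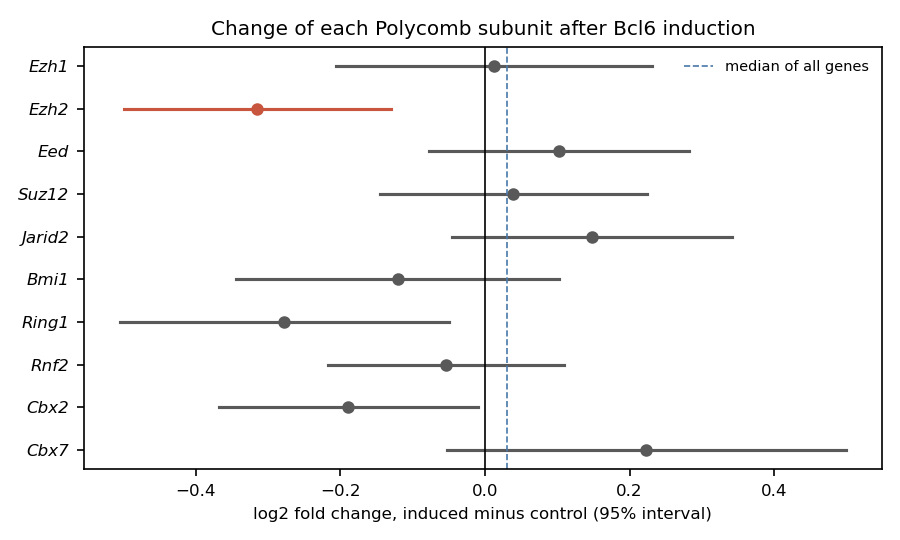
Log2 fold change of each Polycomb subunit, induced minus control (horizontal axis), with points for the limma estimate and bars for its unadjusted 95% interval; red marks an adjusted p under 0.05 and the dashed line the median of all genes, 0.03. Ezh2 at -0.32 is the only red point, and the intervals of Ring1 and Cbx2 also end below 0.

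Among the PRC1 ligases, Ring1 (chromosome 17, 34020792 to 34024680, minus strand) had 23.9, 20.8, 23.2 and 22.3 CPM in controls 1 to 4 and 17.6, 17.6, 17.6 and 21.8 CPM in induced libraries 1 to 4. In 3 induced libraries it lay below every control, and induced 4 lay inside the control range. The mean was 22.5 ± 1.35 CPM across the controls against 18.6 ± 2.11 CPM in the induced group (SD, n = 4 each), a log2 fold change of -0.28 ± 0.10 (SE, limma adjusted p = 0.13) from 194 to 264 reads per library. Rnf2 (chromosome 1, 151458004 to 151500955, minus strand), the more abundant ligase, had 211.4, 251.9, 212.7 and 214.4 CPM in controls 1 to 4 and 221.4, 213.2, 217.3 and 203.7 CPM in induced libraries 1 to 4. Control 2 was high and the other 7 libraries overlapped. The log2 fold change of -0.05 ± 0.07 (SE, limma adjusted p = 0.7) became 0.01 without control 2. The unadjusted interval of Rnf2 was the narrowest of the set, from -0.22 to 0.11 on the log2 scale.

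Cbx2 (chromosome 11, 119022962 to 119031270, plus strand), a chromodomain subunit that also compacts nucleosomes, had 85.6, 82.4, 82.7 and 90.4 CPM in controls 1 to 4 and 69.3, 68.4, 80.8 and 81.3 CPM in induced libraries 1 to 4. The groups did not overlap, but induced 3 and 4 lay just below the lowest control. The log2 fold change was -0.19 ± 0.08 (SE), with a limma adjusted p of 0.19. Cbx7 (chromosome 15, 79915807 to 79971119, minus strand), the chromodomain subunit typical of embryonic stem cells, had 103.4, 102.7, 158.9 and 112.0 CPM in controls 1 to 4 and 135.6, 144.7, 131.3 and 136.2 CPM in induced libraries 1 to 4. The induced values lay close together above 3 of the controls and below control 3. With all libraries the log2 fold change was 0.22 ± 0.13 (SE, limma adjusted p = 0.3), and without control 3 it was 0.37 and called (adjusted p = 0.019). Bmi1 (chromosome 2, 18677018 to 18686629, plus strand) had 32.5, 35.3, 33.2 and 40.7 CPM in controls 1 to 4 and 32.3, 30.1, 30.8 and 37.1 CPM in induced libraries 1 to 4. The groups overlapped, replicate 4 was the highest of each group, and the log2 fold change was -0.12 ± 0.10 (SE, limma adjusted p = 0.5), or -0.05 without control 4 and -0.19 without induced 4.

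When each library was given a weight by how well it followed its group, Ring1 and Cbx2 were called as well (log2 fold changes of -0.29 and -0.25, limma adjusted p = 0.0493 and 0.0427), in a fit that called 16.8% of all genes. Small parts of 5 subunits' exons overlap a gene on the opposite strand, from 1.54% of the exonic length in Cbx7 to 6.82% in Eed and including 2.61% in Ezh2. Whether reads were counted by strand is not given in the sources used here, so reads in those parts cannot be told apart.

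**Figure D3:**
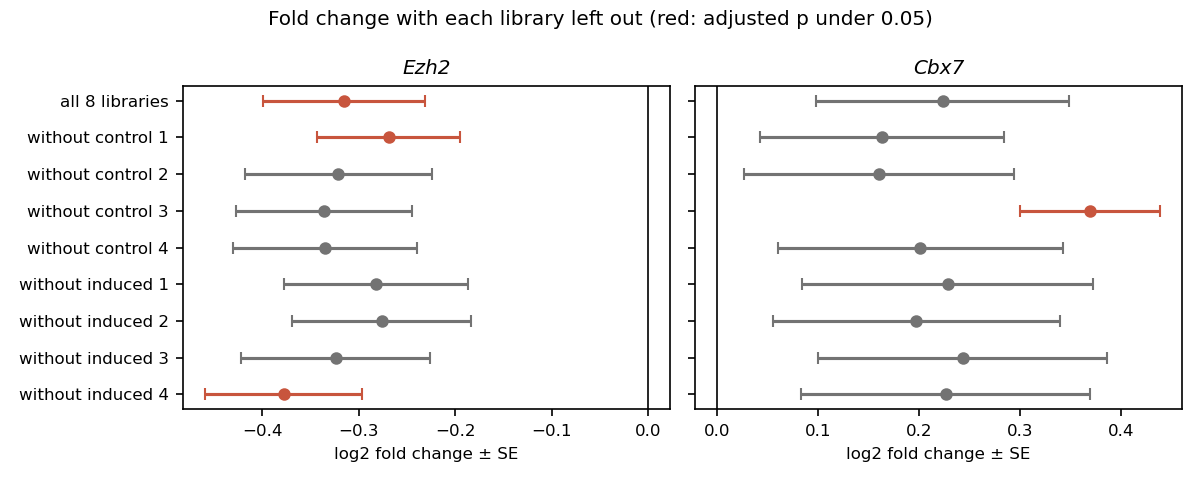
Log2 fold change ± SE of Ezh2 (left) and Cbx7 (right), induced minus control (horizontal axes), with all 8 libraries and with each library left out in turn (rows); red marks a limma adjusted p under 0.05. Ezh2 stays between -0.38 and -0.27 and is red in 2 of the 8 fits with a library left out, and Cbx7 is red only without control 3, at 0.37.

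Levels of different genes were compared as CPM per kb of annotated exon, a scale that counts every exon of the gene whether or not it is used. In the controls the order was Suz12 (58.7 ± 6.37), Rnf2 (53.9 ± 4.74), Jarid2 (31.4 ± 3.81), Ezh2 (26.9 ± 1.81), Eed (22.0 ± 2.2), Cbx2 (20.0 ± 0.87), Cbx7 (18.4 ± 4.13), Bmi1 (8.92 ± 0.94), Ezh1 (7.68 ± 0.88) and Ring1 (6.95 ± 0.42), all CPM per kb (mean ± SD, n = 4). Ranges over the 4 controls overlapped between neighbours in this order except between Rnf2 and Jarid2, between Ezh2 and Eed, and between Cbx7 and Bmi1. In the induced libraries the order was the same except that Eed (23.5 ± 0.62) stood above Ezh2 (21.7 ± 2.17), and Cbx7 (21.1 ± 0.87) above Cbx2 (17.6 ± 1.66).

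Within each library, paralogues were set against each other as log2 ratios of CPM per kb, as a description with no test. Ezh2 exceeded Ezh1 by 1.99, 1.89, 1.52 and 1.85 in controls 1 to 4 and by 1.29, 1.27, 1.71 and 1.68 in induced libraries 1 to 4. The ratio was lowest in induced 1 and 2, while induced 3 and 4 lay inside the control range. The mean log2 ratio was 1.81 ± 0.21 in the controls and 1.49 ± 0.24 in the induced group (SD, n = 4 each). The ratio of Cbx2 to Cbx7 was 0.34, 0.29, -0.34 and 0.30 in the controls and -0.36, -0.47, -0.09 and -0.14 in the induced libraries on the log2 scale. Cbx2 thus exceeded Cbx7 in 3 controls, and Cbx7 exceeded Cbx2 in control 3 and in the 4 induced libraries. Ring1 stood below Rnf2 in all 8 libraries, with a mean log2 ratio of -2.95 ± 0.20 in the controls and -3.18 ± 0.20 in the induced group.

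Marker lists of cell types were set beside Ezh2. Over all genes, limma called 4.55% higher and 2.26% lower at an adjusted p under 0.05. At an unadjusted p under 0.05 it was 23.7% in either direction and 8.89% lower. Of 16 genes of proliferating cells, the limma test at an adjusted p under 0.05 called 0, and 6 were lower (37.5%) and 0 higher at an unadjusted p under 0.05. Their summed level was 5778 to 5936 CPM across the controls against 5132 to 5428 CPM in the induced libraries, and the 2 ranges did not overlap. Of 13 markers of radial glia and neural progenitors, 7 fell and 1 rose (Lhx2, to 11.7 CPM, named after its value was seen), and their mean log2 level, relative to the control mean, was -1.25, -1.20, -0.37 and -0.29 in induced libraries 1 to 4. Hes5 (log2 fold change -3.66) and Fabp7 (-2.53), named after their values were seen, fell the most and weigh on this mean. The median log2 fold change of the 13 was -0.60. Induced 1 and 2, which had the lowest Ezh2 values, also had the lowest values of the radial glia list and of the proliferation list. Of 16 neuronal markers 8 rose and 0 fell, with summed levels of 1052 to 1294 CPM across the controls against 1700 to 2020 CPM in the induced libraries; Tubb3, a neuronal tubulin, rose by 0.96 on the log2 scale (adjusted p = 0.0031). Of 18 markers of pluripotent cells 10 rose and 1 fell, Tdgf1 (log2 fold change -0.43, adjusted p = 0.012), and their summed level of 2919 to 3168 CPM in the controls overlapped that of 2826 to 3286 CPM in the induced libraries. For fibroblast feeder cells 0 of 11 rose and 1 fell (Fbln1; summed 1487 to 2245 CPM across the controls against 2114 to 2364 CPM in the induced libraries), and for endoderm cells 0 of 10 were called while 5 were higher and 0 lower at an unadjusted p under 0.05 (631.3 to 815.1 CPM and 797.5 to 1128 CPM). The part of cell composition in the Ezh2 result was not tested.

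**Figure D4:**
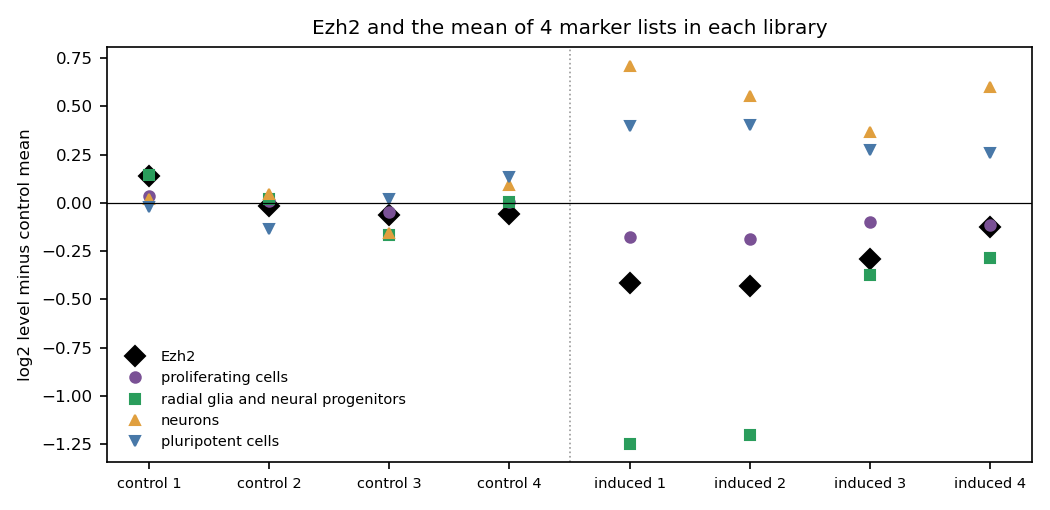
Log2 level of Ezh2 (black) and mean log2 level of 4 marker lists (colours), each relative to its control mean (vertical axis), in the 8 libraries (horizontal axis, controls left of the dotted line). In the 4 induced libraries Ezh2, the proliferation list and the radial glia list lie below 0 and the neuronal and pluripotency lists above 0, with the radial glia list at -1.25 and -1.20 in induced 1 and 2. The large falls of Hes5 and Fabp7 weigh on the radial glia mean.

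The genes most like Ezh2 over the 8 libraries, by Pearson's correlation of log2(value + 1) among 13553 genes, were Ak3 (0.99), a mitochondrial adenylate kinase, 1810043G02Rik (0.99) and Vstm2b (0.98). Vstm2b fell from 11.2 ± 1.69 to 6.55 ± 1.69 CPM (SD, n = 4 each, limma adjusted p = 0.033), and Ak3 stood at 62.4 ± 3.44 and 51.3 ± 4.77 CPM and was not called (0.069). Those most like Cbx7 were Traf3ip2 (0.96), Cacna1a (0.96) and Pusl1 (0.96), none of them called. These correlations describe the best matches of a large search, and the difference between the groups enters them.

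Of 10 other PRC2 genes 8 were in the table, and limma called 0 of them, with 0 also at an unadjusted p under 0.05 and a median log2 fold change of 0.02, which became -0.06 without control 1. The 2 with the smallest p were Phf1, a Polycomb-like accessory subunit (10.9 ± 1.64 and 13.02 ± 0.81 CPM, adjusted p = 0.22), and Rbbp4, a histone-binding core partner (515.4 ± 43.8 and 462.0 ± 9.05 CPM, adjusted p = 0.22; SD, n = 4 each). Of 24 other PRC1 genes 1 was called (4.17%, beside 6.81% of all genes), and 5 (Pcgf5, Pcgf3, Scmh1, Rybp and L3mbtl2) were higher and 0 lower at an unadjusted p under 0.05 (20.8%, beside 23.7%). Their median log2 fold change was 0.07, and -0.004 with the trend on transcript length taken off. The called gene was Pcgf5, which takes the place of Bmi1 in a variant PRC1. It had 13.5, 15.2, 14.6 and 16.1 CPM in controls 1 to 4 and 24.7, 24.4, 18.2 and 19.1 CPM in induced libraries 1 to 4. All induced values lay above all controls, induced 1 and 2 being the highest. Pcgf5 rose by 0.53 ± 0.13 on the log2 scale (SE, limma adjusted p = 0.032), and the call was lost without control 2 or 3 or induced 1 or 2 (adjusted p up to 0.12) and when the trend of each library with transcript length was taken off (0.41, adjusted p = 0.0723). Bcor, a partner of Bcl6 that also belongs to a variant PRC1, stood at 126.5 and 129.9 CPM (means of n = 4, log2 fold change 0.04, limma adjusted p = 0.83).

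Genes linked to the removal of the Polycomb marks or to the placing of the mark of active genes gave no call. Of 9 genes of the H2A deubiquitinase complex PR-DUB and the lysine 27 demethylases, limma called 0, with 2 higher at an unadjusted p under 0.05 (22.2%, beside 23.7% of all genes): Asxl3 and Foxk2, both of PR-DUB. Asxl3 had a control mean of 16.5 ± 5.43 CPM and an induced mean of 26.0 ± 3.54 CPM (SD, n = 4 each, adjusted p = 0.086), and Foxk2 at 116.4 ± 3.90 and 131.7 ± 3.203 CPM (0.11). In neither gene did the groups overlap, as in 10.8% of all genes with no overlap and higher. Of 16 Trithorax-group genes, 0 were called and 1 was lower at an unadjusted p under 0.05 (6.25%). Most of the 16 encode methyltransferases of lysine 4 of histone H3 or partners of these enzymes. Their median log2 fold change was 0.13 with all libraries and 0.002 without control 1, which lay low for this list (mean log2 level of -0.43 relative to the control mean). The lower gene was Dpy30, a shared core subunit of the methyltransferases, at 121.0 ± 18.8 and 99.4 ± 3.08 CPM (adjusted p = 0.12), and the next was the methyltransferase Kmt2b at 138.4 ± 34.7 and 164.9 ± 6.49 CPM (0.26).

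**Figure D5:**
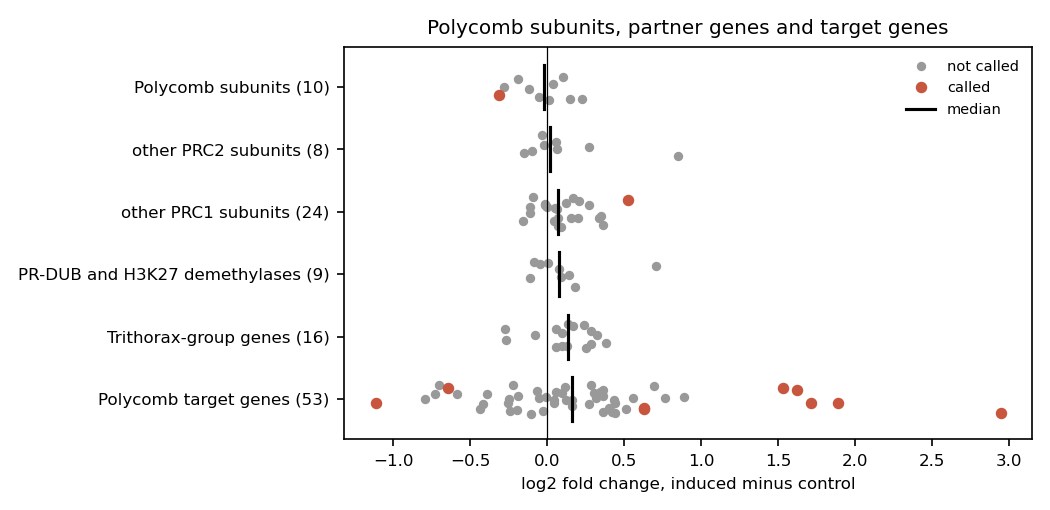
Log2 fold change, induced minus control (horizontal axis), of every gene in the table for the 10 subunits, 4 lists of partner or opposing genes, and the target list (rows, with the number of genes), where red marks a limma adjusted p under 0.05 and the black bar the median. Only Ezh2 is red in the subunit row and Pcgf5 in the other PRC1 row, while 9 of 53 target genes are red, at up to 2.95 for Cdx2. Among these, Evx1, Evx2 and Barx1 were in the table through the group in which they were high.

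The list of genes widely known as Polycomb targets in embryonic stem cells held 96 developmental genes, most of them transcription factors, of which 53 were rows of the table. It was chosen with earlier results of these data known, so its share of calls is not independent evidence. The target list shares Tbx3 with the pluripotency markers, and Sox17, Foxa2, Gata4 and Gata6 with the endoderm markers. Of the 53, limma called 7 higher and 2 lower (17%, beside 6.81% of all genes), and 18 were higher and 5 lower at an unadjusted p under 0.05 (43.4%, beside 23.7%). Their median log2 fold change was 0.16, between 0.07 without control 2 and 0.26 without control 4. The lowest mean of any row was 15.12 scaled reads. Evx1 and Evx2 had control means below it (8.5 and 9 scaled reads) and Barx1 an induced mean below it (15). These 3 were thus in the table through the group in which they were high and had to differ. Without them 5 were called higher and 1 lower. The shares and the median above include them and were not computed without them. The number called was 3 without control 2, 2 without induced 1, 4 without induced 2 and 3 without induced 3, T and Cdx2 being among them each time. T (Brachyury), a regulator of mesoderm, had 23.3, 18.9, 23.8 and 17.5 CPM in controls 1 to 4 and 59.5, 61.4, 61.9 and 56.8 CPM in induced libraries 1 to 4. The groups lay far apart with little spread within the induced group, and T rose by 1.53 ± 0.11 on the log2 scale (SE, adjusted p = 0.00011). Cdx2, a homeobox factor of the posterior embryo, had 1.503, 0.45, 1.66 and 1.60 CPM in controls 1 to 4 and 11.1, 10.3, 9.67 and 6.92 CPM in induced libraries 1 to 4. Again no values overlapped, and the rise was 2.95 ± 0.37 on the log2 scale (SE, adjusted p = 0.0022). T and Cdx2 were called in all 8 fits that leave out a library.

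Because Evx1, Evx2 and Barx1 had to differ to be in the table, their p-values and fit counts below are no evidence of a change. Evx1, a posterior homeobox factor, had 0.43 ± 0.15 and 1.48 ± 0.32 CPM (SD, n = 4 each, limma adjusted p = 0.014). Only 2 to 5 reads lay behind it in the control libraries, and it was not called without induced 1 (0.0608). Lhx1, a LIM homeobox factor, rose from 14.4 ± 1.10 to 22.4 ± 4.23 CPM (adjusted p = 0.023), a call held in 4 of the 8 fits with a library left out. It was lost without control 2 or 4 or induced 1 or 3, with an adjusted p of up to 0.0667. The 3 other targets that rose, named after their values were seen, were Hoxd9, Evx2 and Tbx3, called in 3, 4 and 2 of the 8 fits. All 3 were lost without control 2 or induced 1, 2 or 3; Hoxd9 was also lost without control 4, and Tbx3 without control 3 or induced 4. Barx1 went from 1.73 ± 0.50 to 0.75 ± 0.11 CPM (adjusted p = 0.038), called in 1 of the 8 fits, that without control 3. Foxa1, a forkhead factor of endoderm and floor plate, went from 24.3 ± 3.29 to 15.8 ± 4.10 CPM (adjusted p = 0.048), with overlapping groups, and was called in 3 of the 8 fits (lost without control 2 or 4 or induced 1, 2 or 3). Side by side, then, T and Cdx2 rose in cultures in which Ezh2 had a change of -19.6%, a call held in 2 of the 8 fits. In the same cultures Ezh1, Eed, Suz12, Jarid2, Rnf2 and Bmi1 were not called in any fit run. Histone marks and binding of either complex at these genes were not measured, and no link between the subunits and the targets was tested.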

How the data were processed

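The submitters' processing notes list edgeR 3.20.1, HTSeq 0.9.1 and STAR 2.5.3a, and the build mm10, for libraries from a stranded poly(A) kit, per the labels' protocols. The expression values the authors deposited were used as a score: reads scaled to 19.93 M to 19.96 M per library and rounded up, for 14954 genes. They are not raw counts, so no count test was run. limma 3.58.1 (R 4.3.3, variance trend, no covariate) was fitted on log2(value + 1) over all genes, induced minus control, with 4 libraries a group, Benjamini-Hochberg adjustment and a threshold of 0.05. Fold changes on this scale understate those of low genes. CPM is the value per 1 M of its library's total. The fit was tested on simulated data, in which the set changes were larger than that of any subunit here. The members and gene lists were chosen with earlier results of these data known. Beside the 10 subunits and Bcl6, the text names the called genes of 5 lists (up to 4 per direction by p, or else the 2 of smallest p), the most abundant markers, and the 3 genes most correlated with Ezh2 and Cbx7. Beyond numbering the differentiations the labels say nothing of their independence, and each p-value reflects only how these libraries vary, which may be technical. Scaling, pseudocount, filter, weights, depth, transcript length, a replicate block and leaving out each library were tried as alternatives.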

Additional observations from a re-analysis of the deposited data

Results flagged for a closer look

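In 78 groups of 4 libraries, 10 had a single library far from the other 3 by Dixon's test, where chance flags about 1 in 20. Control 3 stood high in Ezh1 (66.87 CPM, the other controls 53.22 to 55.21) and in Cbx7 (158.9 CPM, the others 102.7 to 112.0), and its log2 ratio of Cbx2 to Cbx7 was low (-0.335, the others 0.289 to 0.335). Control 2 stood high in Rnf2 (251.9 CPM, the others 211.4 to 214.4) and low in Cdx2 (0.4508 CPM, the others 1.503 to 1.656). Induced 4 stood high in Ring1 (21.8 CPM, the others 17.58 to 17.59) and in the log2 ratio of Ring1 to Rnf2 (-2.876, the others -3.306 to -3.252), and low in Sox2 (232 CPM, the others 261.8 to 263.9). Among marker genes, Fn1 was high in induced 1 (1497 CPM, the others 1403 to 1407) and Col3a1 in control 4 (313.4 CPM, the others 245.7 to 254.0). Without control 3 the limma call of Cbx7 changed, and without control 2 the sign of Rnf2 turned, as given with those genes.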

How the results depend on the processing

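Of 1019 genes called in all, 66.8% were higher; the share was 55.8% with median-of-ratios scaling (536 of 960), 51.4% with upper quartile scaling (501 of 975) and 50.5% of 1742 with the transcript length trend taken off, and scalings moved the median of all genes by less than 0.1 (-0.003 and -0.021 against 0.031). Array weights called 2507 genes. Leaving out a library gave 308 (without induced 1) to 1697 (without control 1) genes for the table, 0 to 1 subunits, 0 to 3 other PRC1 genes and 2 to 9 targets. Array weights called 3 subunits, 1 other PRC2 gene (Phf1), 4 other PRC1 genes (Pcgf3, Pcgf5, Rybp and Scmh1), 1 PR-DUB gene (Foxk2), 1 Trithorax-group gene (Dpy30) and 18 targets. Taking off the length trend called 1 PR-DUB gene (Asxl3) and 1 Trithorax-group gene (Dpy30), a minimum mean of 100 scaled reads left 2 other PRC1 genes (Pcgf5 and Scmh1) and 5 targets (T, Cdx2, Lhx1, Tbx3 and Foxa1) called with fewer genes tested, and thinned reads called 0 subunits. Where no value shows the cause of such a shift, the cause was not tested.

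The replicate numbers were tried as a replicate block. Deviations of same-numbered libraries correlated at 0.04, 0.03, -0.03 and 0.31. Only number 4 correlated best with its own number in both directions. Correlations over so few pairs cannot tell whether same-numbered cultures came from a shared differentiation, so a pairing was neither shown nor excluded. The block called 827 genes, 0 subunits (Ezh2 adjusted p = 0.0832), 0 other PRC1 genes (Pcgf5 0.0521), 1 PR-DUB gene (Asxl3) and 7 targets, with Barx1 (0.0521) and Evx2 (0.0555) lost. The block with the length trend taken off, chosen after seeing the data, called 1671 genes, 1 subunit (Ezh2, 0.037), 2 other PRC1 genes (Pcgf3 and Pcgf5), 1 PR-DUB gene and 1 Trithorax-group gene (Asxl3 and Dpy30).

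Among the subunits and the other genes run under each alternative, 5 turned sign. Ezh1 (0.012) became -0.021 with median-of-ratios scaling, -0.040 with upper quartile scaling, -0.059 with the length trend off, with or without the block, -0.002 without control 1, -0.019 without control 2 or 4, -0.020 without induced 1 and -0.021 without induced 2, and was at most 0.090 (without control 3). Suz12 (0.039) became -0.013 with upper quartile scaling, -0.005 with array weights, -0.006 with the length trend off, with or without the block, and -0.042 without control 1, against 0.079 without control 3. Rnf2 (-0.054) became 0.007 without control 2, against -0.077 without control 1. The neuronal Stmn2 (-0.023) became 0.091 with array weights, 0.078 without control 1, 0.026 without induced 3 and 0.001 without induced 4, against -0.084 without control 3. Sox2 (-0.008) became 0.054 with array weights, 0.050 without control 1 and 0.037 without induced 4, against -0.043 without control 3. The planned edgeR and DESeq2 fits were not run because the values are not counts. Thinning to the smallest library ended the call of Ezh2 (0.0526) and changed no other call among the genes followed singly under each alternative. Over the whole table thinning called 980 genes, and it called 11 targets in place of 9.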
